A study of Oryza sativa with 3 samples.

Results

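The predicted rice miRNAs described here, named OsmiR in the study, are those whose listed position lies inside a gene. They were chosen from the 230 named OsmiR in the deposited table of predicted miRNAs by its column of genomic context. Each OsmiR was counted once, from its first listed position, and kept where that column read intron or exon, except for 14 OsmiR set aside by name. The rule named no read count, but the OsmiR set aside by name included some with large changes over time. Among them were OsmiR-201 with 1821, 10 and 4 reads and OsmiR-38 with 0, 366 and 356 at 0, 12 and 24 h after imbibition. Others changed less, such as OsmiR-55 with 22, 61 and 42 reads. The OsmiR kept can therefore not be taken as chosen without regard to reads. The study itself had kept predictions that passed a read minimum in at least 1 library, so an OsmiR could enter the table through the library where it was high. The rule gave 58 genic OsmiR, 45 intronic and 13 exonic, of 289 named miRNAs in all, of which 59 were known miRNAs. The 14 OsmiR set aside included 8 genic ones, 2 intronic and 6 exonic. A further 156 OsmiR with an intergenic first position, less those set aside, served for comparison.

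The study sequenced small RNAs from hand-dissected embryos of *Oryza sativa* cv. Nipponbare at 0, 12 and 24 h after imbibition (HAI), that is, from de-hulled dry seed and from seed kept in water in a dark incubator. Each time point had 1 library, made from pooled RNA, and differences in reads over time therefore have no replicates behind them. The study also measured selected miRNAs, OsmiR-18, OsmiR-122 and OsmiR-230 among them, by stem-loop real-time RT-PCR with biological replicates. It reported that most of the selected miRNAs, but not all, had the pattern seen in sequencing. Those RT-PCR values were not used here. The labels gave no genotype, mutation or agent other than water. The embryo label could not be checked here against marker genes, because the tables list miRNAs only.

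Plant miRNAs are cut by Dicer-like enzymes from transcripts that fold back into a hairpin, and the opposite strand of the excised duplex is called the miRNA*. In rice, canonical miRNAs are mostly made by DCL1 and often begin with U, which AGO1 favours, whereas longer small RNAs made by DCL3 often begin with A, which AGO4 favours, and are known for their part in DNA methylation. A hairpin inside a gene can lie in an intron, where it may be transcribed with its host, or in an exon of a coding or non-coding transcript. Sequences are given as DNA, as deposited, so T stands for U.

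The exonic OsmiR with the most reads are shown first, since they hold most of the exonic reads. The capitals mark the seed, bases 2 to 8 from the 5′ end.
OsmiR-122: aTCGGAGGccatggtgcagcc
OsmiR-18: tGAGGGGAatgttgtctggct
OsmiR-230: cCAAATTCccaacttttcatc
OsmiR-7: gGGGCGAGctgggaacacacg
OsmiR-74: tGGCGATGagagctcgcatctgg
OsmiR-126: tCATCCGGcagcttcatcttc

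The intronic OsmiR with the most reads, and OsmiR-49 and OsmiR-206, which had the highest and the lowest measured ratio of 24 HAI to 0 HAI among intronic OsmiR with reads in every library, are shown in the same way.
OsmiR-161: aGAAGTTTgacttaggacaaaact
OsmiR-118: aAGCGTGCtcacggaaaacgaggg
OsmiR-175: tCCCAAAAtaaacaaagctagt
OsmiR-64: aATGGCTTgtcttgttttgtgtgc
OsmiR-115: aAATATAGcaatctagtactggat
OsmiR-133: aTTTGTTGtattagggaatgtctc
OsmiR-49: cATGGTATtgacttggctcatc
OsmiR-206: gGGCCAATgattatatagaaa
The exonic sequences were mostly 21 nt long and the intronic ones mostly 24 nt long, and no seed was shared between any of these 14.

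Length separated the exonic from the intronic OsmiR. A length of 24 nt was found in 37 of 45 intronic OsmiR (82.2%, 95% Wilson interval 68.7% to 90.7%) and in 4 of 13 exonic OsmiR (30.8%, 12.7% to 57.6%). The difference of 51.5 percentage points passed a two-sided Fisher's exact test (p = 0.000849, Benjamini-Hochberg adjusted p = 0.0127 over 30 tests). Of the intergenic OsmiR, 128 of 156 (82.1%) were 24 nt long. The exonic share differed from it (Fisher's exact test, adjusted p = 0.00537), and the intronic share was 0.17 percentage points above it (Fisher's exact test, adjusted p = 1). The most frequent exonic length was 21 nt, in 7 of 13, against 3 of 45 intronic and 10 of 156 intergenic OsmiR. These tests treat the OsmiR as independent, although several share sequence, and the length difference no longer passed once the hairpins that hold a known miRNA, described further on, were left out (36 of 43 against 4 of 8, Fisher's exact test, adjusted p = 0.551).

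The first base differed with the length. A began 31 of 45 intronic (68.9%), 4 of 13 exonic (30.8%) and 100 of 156 intergenic OsmiR (64.1%), and T began 9 of 45, 7 of 13 and 37 of 156. Neither difference between intronic and exonic OsmiR passed the threshold after adjustment (A, 38.1 percentage points, Fisher's exact test, adjusted p = 0.202; T, −33.8 percentage points, adjusted p = 0.202). Within the sequences of 24 nt, A began 31 of 37 intronic and 3 of 4 exonic OsmiR. Among the shorter ones, A began 0 of 8 intronic and 1 of 9 exonic OsmiR, while T began 6 of 8 and 6 of 9. The 24-nt and the shorter sequences thus differed in first base in the same direction in both classes, and the classes differed in how many of each they held.

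**Figure D1:**
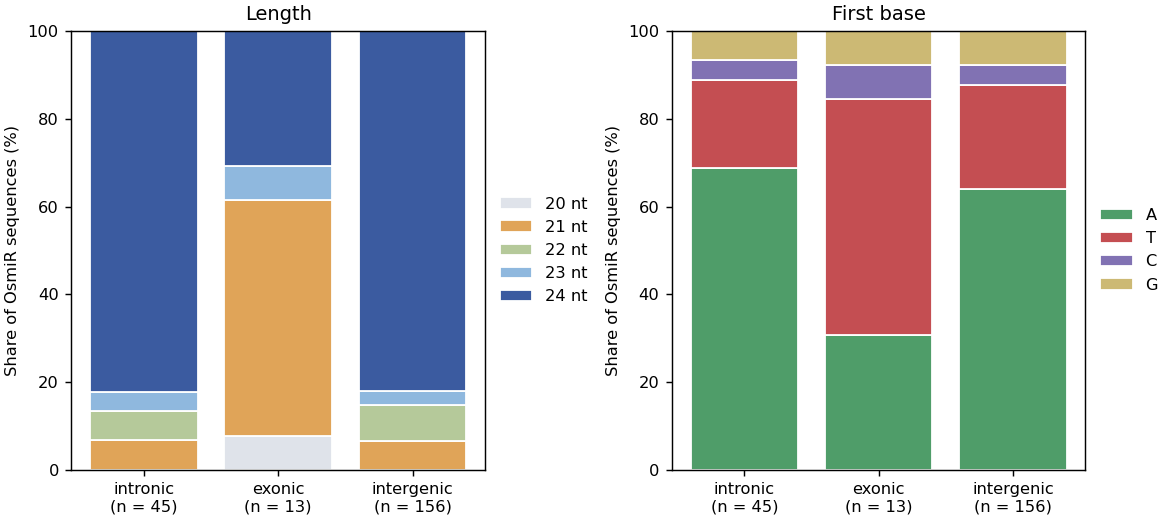
Share of OsmiR sequences (y axis, %) by length (left) and first base (right) for 45 intronic, 13 exonic and 156 intergenic OsmiR; each colour is 1 length or 1 base. The 24-nt part takes 82.2% of the intronic and 30.8% of the exonic bar, and the A part 68.9% and 30.8%.

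No measure of the hairpins differed past the threshold between intronic and exonic OsmiR. The listed precursors of intronic OsmiR were 54 to 241 nt long with a median of 88 nt, and those of exonic OsmiR 58 to 177 nt with a median of 82 nt. Their median G+C content was 33.1% and 41.2%. The minimal folding free energy (MFE), computed from the listed sequences with RNAfold, had medians of −42.7 and −45.6 kcal/mol. The MFE index (MFEI), which is the MFE per 100 nt divided by the G+C percent, had medians of 1.32 and 1.23. None of the 4 measures passed Fisher's exact test on the number of OsmiR above the joint median (adjusted p = 1 for length, 0.565 for G+C, 0.875 for MFE and 0.875 for MFEI). The study had kept predictions with an MFEI over 0.85 or a miRNA*, so hairpin strength was part of their selection.

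All 58 listed hairpins folded with 1 loop, and each mature sequence stood at an end of its listed hairpin. The 3p arm carried 25 of 45 intronic and 4 of 13 exonic mature sequences (Fisher's exact test, adjusted p = 0.565). A miRNA* was listed for 6 of 45 intronic, 2 of 13 exonic and 45 of 156 intergenic OsmiR, and the share of intronic ones, 15.5 percentage points below the intergenic share, did not pass after adjustment (Fisher's exact test, adjusted p = 0.216). The extremes were intronic. OsmiR-163 had the lowest energy, −107 kcal/mol, with all bases of its mature sequence paired. OsmiR-204 had the highest, −18.4 kcal/mol.

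**Figure D2:**
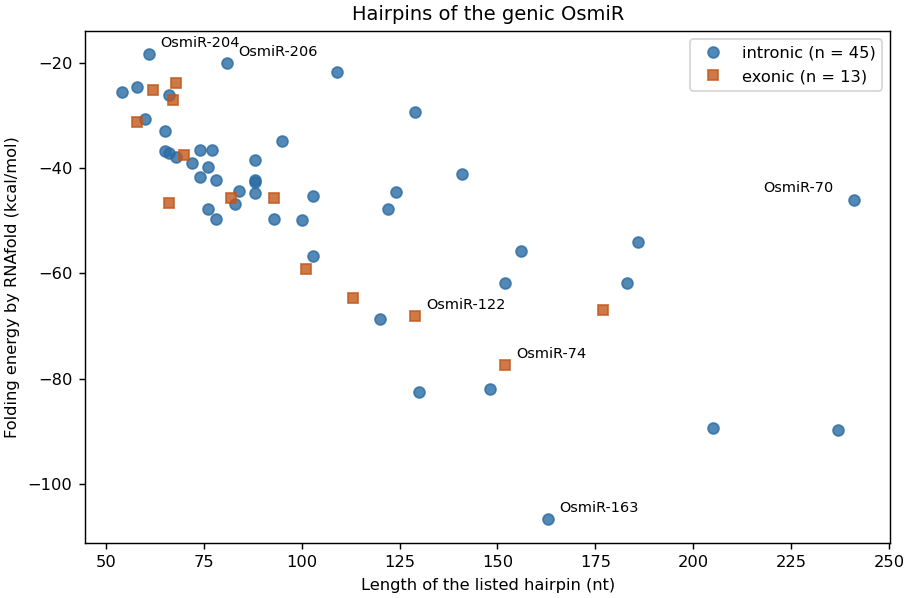
Folding energy of the listed hairpin by RNAfold (y axis, kcal/mol) against its length (x axis, nt) for 45 intronic (circles) and 13 exonic OsmiR (squares). The points of both classes overlap over most of the range, and the outermost points, OsmiR-163, OsmiR-70 and OsmiR-204, are intronic.

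Known miRNA sequences stood inside the hairpins of 7 genic OsmiR, 5 of 13 exonic and 2 of 45 intronic, against 4 of 156 intergenic OsmiR. Here a hairpin was counted where it held at least 15 bases in a row of a known mature miRNA of the deposited tables, on either strand, a rule set after the sequences had been seen. The hairpins of OsmiR-122 and OsmiR-74 are shown because both hold the sequence of miR169, a family that targets NF-YA transcription factors. The capitals mark the OsmiR.
OsMIR-122 (chr1:8729125-8729253, plus strand): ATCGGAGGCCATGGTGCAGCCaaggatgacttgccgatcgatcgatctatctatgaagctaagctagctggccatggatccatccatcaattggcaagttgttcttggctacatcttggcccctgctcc
OsMIR-74 (chr9:19788848-19788999, plus strand): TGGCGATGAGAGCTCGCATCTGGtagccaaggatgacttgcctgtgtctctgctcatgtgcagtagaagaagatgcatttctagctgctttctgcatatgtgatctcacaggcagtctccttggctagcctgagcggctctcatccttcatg
For comparison, the known sequence is given with capitals at the bases it shares in a row with OsMIR-122.
osa-miR169ijkmq: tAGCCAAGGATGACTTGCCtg
The shared 18 bases occupied bases 18 to 35 of OsMIR-122, so that 4 of them lay within OsmiR-122 itself, whose last base was base 21. In OsMIR-74 all 21 bases of osa-miR169ijkmq followed directly after OsmiR-74, at bases 24 to 44, and the position of OsMIR-74 covered that of osa-MIR169j. Coordinates are those of the MSU 7.0 rice genome, which the study used.

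The other 5 such hairpins held miR166, miR167, miR440, miR1862 and, on the opposite strand, miR156. OsMIR-18 held 21 of the 22 bases of osa-miR166j on its other arm, at bases 152 to 172; miR166 targets HD-ZIP III transcription factors. OsMIR-126 covered osa-MIR167g on chromosome 3, with osa-miR167fghj on the 5p arm and OsmiR-126 on the 3p arm; miR167 targets auxin response factors. OsMIR-93, intronic, covered osa-MIR440 on chromosome 11, with OsmiR-93 on the 5p arm and osa-miR440 on the 3p arm. The hairpin of OsmiR-175, intronic, held all 23 bases of osa-miR1862d at bases 51 to 73, opposite OsmiR-175 at bases 1 to 22. OsMIR-88-1 lay over osa-MIR156b on chromosome 1 but on the other strand, and 19 of the 20 bases of OsmiR-88 were complementary to osa-miR156abcei, of the family that targets SPL transcription factors. Both pairs of complementary sequences are shown with the complementary stretch in capitals.
OsmiR-88: tGTGCTCACTCTCTTCTGTC
osa-miR156abcei: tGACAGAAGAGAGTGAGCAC
OsmiR-175: TCCCAAAATAAACAAAgctagt
osa-miR1862d: actaggTTTGTTTATTTTGGGAc

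Over the time course, the summed TPM (reads of a miRNA scaled to a fixed total of genome-mapped reads per library) of the genic OsmiR was highest at 12 HAI. The depth was 19203513, 22332607 and 17359816 genome-mapped reads at 0, 12 and 24 HAI, so that 1 read was worth 0.0521, 0.0448 and 0.0576 TPM, and 285143, 634097 and 590212 reads fell on named miRNAs. Intronic OsmiR had 3665, 7920 and 5777 reads (191, 355 and 333 TPM). Exonic OsmiR had 358, 3500 and 2709 reads (18.6, 157 and 156 TPM). From 0 to 12 HAI the summed exonic TPM increased 8.41-fold (exact 95% limits 7.54 to 9.40) and the summed intronic TPM 1.86-fold (1.79 to 1.93). The exonic increase was 3.22-fold (2.80 to 3.72) without OsmiR-122, and 1.54-fold (1.47 to 1.62) with the genic OsmiR that were set aside put back, where the intronic one was 1.95-fold (1.87 to 2.02). All limits and intervals cover counting error only, since reads of PCR-amplified libraries are not independent molecules and the libraries have no replicates.

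The exonic share of the genic OsmiR reads was 8.90% at 0 HAI (95% Wilson interval 8.06% to 9.82%), 30.6% at 12 HAI (29.8% to 31.5%) and 31.9% at 24 HAI (30.9% to 32.9%). OsmiR-122 supplied 73.0% and 67.4% of the exonic reads at 12 and 24 HAI. Without it the exonic share was 6.43%, 10.6% and 13.3%. Without the hairpins that hold a known miRNA it was 1.92%, 7.50% and 9.33%. With the 8 genic OsmiR that were set aside put back, the share was 38.8%, 33.4% and 33.5%, and no longer lowest at 0 HAI, where OsmiR-201, exonic, had 1821 reads against 10 and 4 at 12 and 24 HAI. The rise of the exonic share over time therefore held among the 58 and not with those 8 added.

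**Figure D3:**
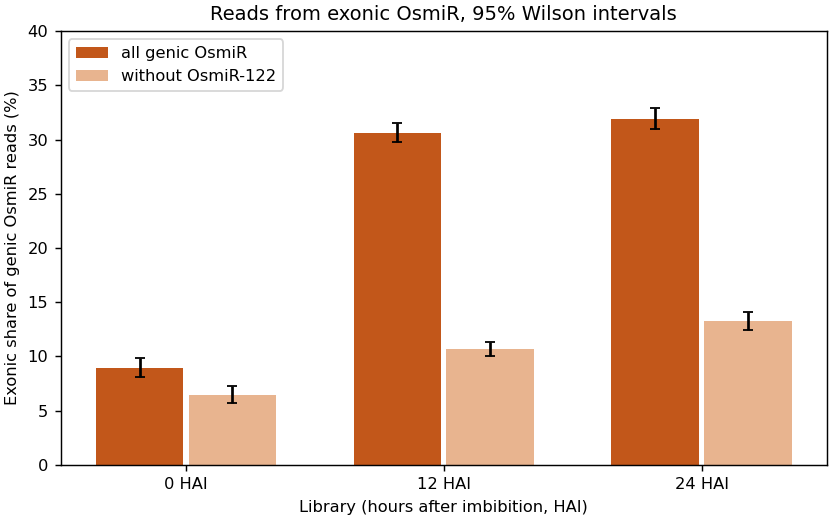
Exonic share of the reads of the 58 genic OsmiR (y axis, %) in the 3 libraries, for all of them and without OsmiR-122; error bars are 95% Wilson intervals, which cover counting error only. The bars are 8.90%, 30.6% and 31.9% with OsmiR-122 and 6.43%, 10.6% and 13.3% without it.

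A few sequences held most of the reads in both classes. The 5 intronic OsmiR with the most reads in a library made up 75.4%, 73.2% and 73.2% of the intronic reads at 0, 12 and 24 HAI, and the corresponding exonic figures were 93.0%, 97.7% and 97.2%. The median over the 3 libraries together was 63 reads per intronic and 27 per exonic OsmiR, and 15 of 45 and 5 of 13 reached 100 reads. The number above the joint median did not differ past the threshold (24 of 45 and 5 of 13, Fisher's exact test, adjusted p = 0.875). At 0 HAI, 22 intronic and 8 exonic OsmiR had under 10 reads, so the ratios of many of them rest on few reads.

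By the TPM, most genic OsmiR were higher after imbibition, as were most named miRNAs. At 12 HAI against 0 HAI, the TPM ratio was over 1 for 42 of 45 intronic and 13 of 13 exonic OsmiR, with medians of 1.93 and 2.58. The median over all 289 named miRNAs was 1.76, or 0.81 on the log2 scale. A ratio over 2, the fold rule of the study, was reached by 21 intronic and 8 exonic OsmiR, beside 37.5% of the 288 named miRNAs with a read in either library. A ratio under 0.5 was reached by 1 intronic OsmiR, OsmiR-204 with 2, 1 and 5 reads at 0, 12 and 24 HAI, and by no exonic one, beside 1.74%. A ratio against 0 reads was taken against a floor of 3 reads per library.

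At 24 HAI against 0 HAI, the ratio exceeded 1 for 43 of 45 intronic and 13 of 13 exonic OsmiR, with medians of 1.94 and 3.32, beside 1.99 over all named miRNAs (0.99 on the log2 scale). Over 2-fold higher were 20 of 45 intronic (44.4%) and 10 of 13 exonic OsmiR (76.9%), beside 49.5% of the 289 named miRNAs. Over 2-fold lower was 1 intronic OsmiR, OsmiR-206, beside 2.42%. The intronic share thus stood close to that of all named miRNAs and the exonic share above it, over 13 sequences.

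Between 12 and 24 HAI the genic OsmiR moved little. The medians were 1.02 for intronic and 1.29 for exonic OsmiR, beside 1.12 for all named miRNAs (0.17 on the log2 scale). Over 2-fold higher were 4 intronic OsmiR and 1 exonic, OsmiR-74, beside 13.8%. Over 2-fold lower were 4 intronic and 0 exonic OsmiR, beside 5.19%. No intronic OsmiR with at least 100 reads passed 2-fold in this comparison, and their ratios ran from 0.526 to 1.32.

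The number past 2-fold, and the direction for many OsmiR, depended on what the reads were divided by. By TMM factors of edgeR, 20 of 45 intronic and 10 of 13 exonic OsmiR were higher at 24 HAI than at 0 HAI. By summed miRNA reads 14 and 10 were higher, and by size factors of DESeq2 21 and 10. At 12 HAI against 0 HAI the numbers were, in the same order, 29 and 9, 24 and 8, and 29 and 9. Of the 289 named miRNAs, 143 were higher at 24 HAI than at 0 HAI by the TMM factors. Scaled by TMM factors of edgeR over the 289 named miRNAs, which put the median of all of them at 0.00 and −0.01 (log2) for 12 and 24 HAI against 0 HAI, 4 intronic OsmiR were over 2-fold higher and 3 lower at 12 HAI, and 4 higher and 2 lower at 24 HAI. Of the exonic OsmiR, 6 were higher and 0 lower in both comparisons. These counts are of 45 intronic and 13 exonic OsmiR. By the same factors, 42 of the 289 named miRNAs were over 2-fold higher and 17 lower at 12 HAI, and 62 higher and 24 lower at 24 HAI. Under the TPM and each of 3 other scalings alike, 5 exonic OsmiR were over 2-fold higher at 24 HAI than at 0 HAI (OsmiR-122, OsmiR-230, OsmiR-7, OsmiR-74 and OsmiR-195), as were 3 intronic OsmiR (OsmiR-49, OsmiR-54 and OsmiR-70), while OsmiR-206 was over 2-fold lower. At 12 HAI against 0 HAI the exonic ones were these 5 and OsmiR-21, and the intronic ones OsmiR-49, OsmiR-54, OsmiR-70 and OsmiR-102, with OsmiR-204 lower. Summed miRNA reads gave the lowest ratios of these scalings. Divided by them, 49 of the 289 named miRNAs were over 2-fold higher at 24 HAI and 40 at 12 HAI. By the TPM, which gave the highest ratios, 7 and 5 were lower. At 0 HAI, OsmiR-21, OsmiR-49, OsmiR-70, OsmiR-74 and OsmiR-102 had 1 read each, and OsmiR-195 and OsmiR-204 had 2.

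Counting error was judged with an exact conditional binomial test on the reads of 2 libraries, adjusted over the named miRNAs with a read in the pair at a threshold of 0.05. Such a test compares the libraries and not the time points. At 12 HAI against 0 HAI it called 21 intronic and 5 exonic OsmiR higher, beside 48.6% of named miRNAs, and none of either class lower, beside 0.694%. At 24 HAI against 0 HAI it called 24 intronic and 6 exonic OsmiR higher, beside 52.9%, and 1 intronic OsmiR lower, beside 1.73%. At 24 HAI against 12 HAI it called 0 intronic and 2 exonic OsmiR higher, beside 20.1%, and 5 intronic and 1 exonic OsmiR lower, beside 8.30%.

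**Figure D4:**
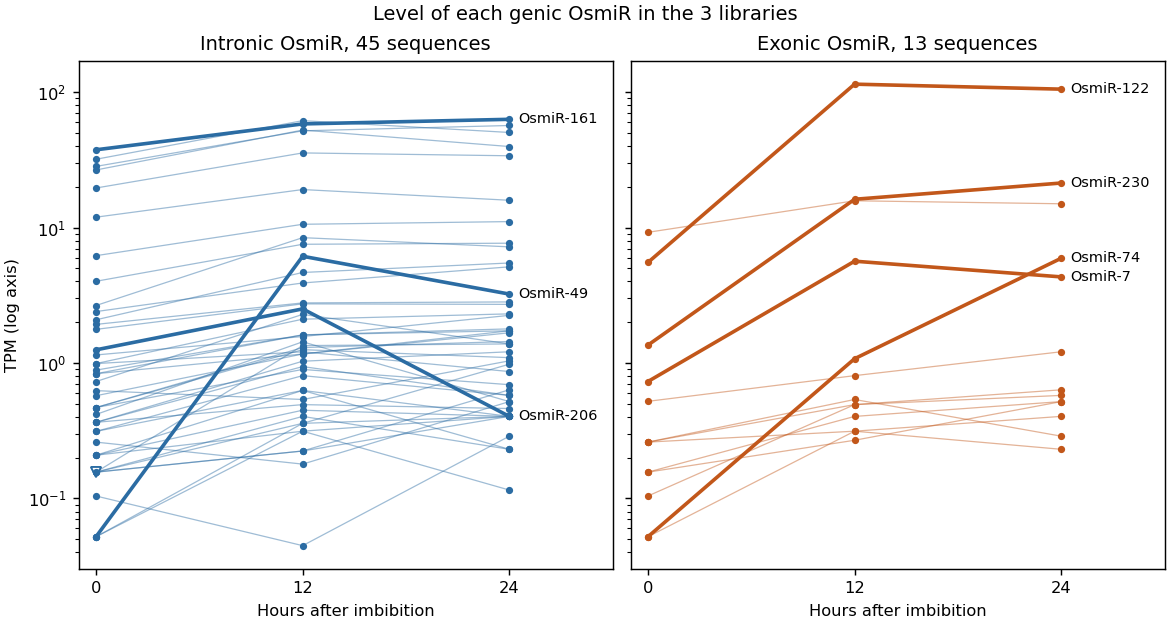
Level of each genic OsmiR (y axis, TPM on a log axis) at 0, 12 and 24 h after imbibition (x axis), intronic on the left and exonic on the right; each line is 1 OsmiR in the 3 libraries, and open triangles mark 0 reads, drawn at the floor of 3 reads. OsmiR-122 passed every intronic OsmiR at 12 and 24 HAI (114 and 105 TPM), and OsmiR-206 was lowest at 24 HAI among its 3 values.

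OsmiR-122 was the genic OsmiR with the most reads after imbibition. It had 106, 2556 and 1825 reads at 0, 12 and 24 HAI (5.52, 114 and 105 TPM). Against 0 HAI its level was 20.7-fold higher at 12 HAI (exact 95% limits 17.1 to 25.4) and 19.0-fold higher at 24 HAI (15.7 to 23.4). From 12 to 24 HAI the ratio was 0.919 (0.865 to 0.976), so that the increase fell within the first interval. The known osa-miR169ijkmq, whose sequence its hairpin holds in part, had 120, 223 and 985 reads and increased mainly in the second interval.

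OsmiR-230, from a hairpin on the minus strand of chromosome 5, had 26, 361 and 370 reads (1.35, 16.2 and 21.3 TPM). The ratio to 0 HAI was 11.9 at 12 HAI (8.01 to 18.5) and 15.7 at 24 HAI (10.6 to 24.4). OsmiR-7, from a 66-nt hairpin on chromosome 7, had 14, 126 and 75 reads (0.729, 5.64 and 4.32 TPM). Its ratios to 0 HAI were 7.74 (4.45 to 14.6) and 5.93 (3.32 to 11.4). Both were 21 nt long, and their hairpins held no known miRNA by the rule above. They are shown with the mature sequence in capitals.
OsMIR-230 (chr5:26275222-26275322, minus strand): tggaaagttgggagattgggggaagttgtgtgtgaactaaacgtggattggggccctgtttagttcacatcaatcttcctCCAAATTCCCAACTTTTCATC
OsMIR-7 (chr7:14598627-14598692, minus strand): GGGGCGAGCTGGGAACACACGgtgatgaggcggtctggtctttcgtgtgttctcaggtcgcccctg
The 2 hairpins carried the mature sequence on different arms, 3p in OsMIR-230 and 5p in OsMIR-7.

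OsmiR-74 and OsmiR-230 were the 2 exonic OsmiR that the exact test called higher at 24 HAI than at 12 HAI. OsmiR-230 had a ratio of 1.32 (1.14 to 1.53) in this comparison. OsmiR-74 had 1, 24 and 103 reads (0.0521, 1.07 and 5.93 TPM). The ratio at 24 HAI against 0 HAI was 114 with exact limits of 20.0 to 4543, which are wide because of the 1 read at 0 HAI. From 12 to 24 HAI OsmiR-74 was 5.52-fold higher (3.51 to 9.01). The adjoining osa-miR169ijkmq, whose reads may come from 5 loci by its name, was 5.68-fold higher over the same interval.

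OsmiR-18 stood apart from these. It had 177, 352 and 260 reads (9.22, 15.8 and 15.0 TPM) and was the one with the most reads at 0 HAI among the 13 exonic OsmiR. Its ratios of 1.71 (1.42 to 2.06) and 1.62 (1.34 to 1.98) were below the medians of all named miRNAs at 12 and 24 HAI. OsmiR-126 had 10, 18 and 21 reads, with a ratio of 2.32 at 24 HAI against 0 HAI (1.05 to 5.52). The other 7 exonic OsmiR had 1 to 5 reads at 0 HAI, 6 to 12 at 12 HAI and 4 to 11 at 24 HAI. Among them OsmiR-195, with 2, 11 and 10 reads, alone had limits of the 24 to 0 HAI ratio that left out 1 (5.53, limits 1.18 to 51.9).

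By the TPM, the 6 intronic OsmiR with the most reads were all higher after imbibition. At 24 HAI, 5 of them were so by less than the median of all named miRNAs. By the TMM factors that median was −0.01 on the log2 scale, so these 5 were then below their 0 HAI level at 24 HAI. OsmiR-161 had 720, 1300 and 1093 reads (37.5, 58.2 and 63.0 TPM). OsmiR-118 had 613, 1374 and 874 reads (31.9, 61.5 and 50.3 TPM). OsmiR-175 had 543, 1156 and 984 reads (28.3, 51.8 and 56.7 TPM). By the TPM, all 3 were lowest at 0 HAI, and OsmiR-118 was highest at 12 HAI while the other 2 were highest at 24 HAI. OsmiR-64 had 511, 1171 and 688 reads (26.6, 52.4 and 39.6 TPM), OsmiR-115 376, 794 and 588 reads (19.6, 35.6 and 33.9 TPM) and OsmiR-133 229, 426 and 276 reads (11.9, 19.1 and 15.9 TPM). The ratios of these 6 at 24 HAI against 0 HAI lay between 1.33 and 2.00. The exact upper limits were below the median of 1.99 for OsmiR-161 (1.85), OsmiR-118 (1.75), OsmiR-64 (1.67), OsmiR-115 (1.97) and OsmiR-133 (1.60), and that of OsmiR-175 was 2.23. From 12 to 24 HAI, OsmiR-64 and OsmiR-118 dropped to 0.756 (0.687 to 0.831) and 0.818 (0.751 to 0.891) of their level. OsmiR-115 had 3 listed positions, 1 of them intergenic, so its reads cannot be assigned to an intron alone.

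OsmiR-49 was the intronic OsmiR with the largest ratio after imbibition. It had 1, 137 and 56 reads (0.0521, 6.13 and 3.23 TPM). The ratios to 0 HAI were 118 at 12 HAI (20.8 to 4687) and 61.9 at 24 HAI (10.7 to 2490), and the level at 24 HAI was 0.526 of that at 12 HAI (0.378 to 0.723). It was a 22-nt sequence that began with C, from a 77-nt hairpin on the minus strand of chromosome 7, so it shared neither the length nor the first base of most intronic OsmiR. The mature sequence is in capitals.
OsMIR-49 (chr7:15636749-15636825, minus strand): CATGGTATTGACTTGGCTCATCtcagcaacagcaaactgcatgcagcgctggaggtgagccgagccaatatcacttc

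OsmiR-206 went the other way after 12 HAI. It had 24, 56 and 7 reads. Its level at 24 HAI was 0.161 of that at 12 HAI (0.0618 to 0.354) and 0.323 of that at 0 HAI (0.117 to 0.772). OsmiR-159, with 8, 32 and 9 reads, had a similar shape, with a ratio of 3.44 at 12 HAI against 0 HAI (1.55 to 8.64) and of 0.362 at 24 HAI against 12 HAI (0.152 to 0.776). OsmiR-206 was 21 nt long and OsmiR-159 24 nt, and both lay in introns. OsmiR-93, whose hairpin covers osa-MIR440, had 14, 51 and 24 reads, beside 17, 24 and 11 for osa-miR440.

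Among intronic OsmiR with at least 100 reads, OsmiR-100, OsmiR-222, OsmiR-89 and OsmiR-71 were also over 2-fold higher at 24 HAI than at 0 HAI with exact limits that left out 1. OsmiR-100 had 51, 188 and 125 reads and a ratio of 2.71 (1.94 to 3.83). OsmiR-222 had 40, 104 and 95 reads and a ratio of 2.63. OsmiR-89 had 46, 87 and 89 reads, from 6 listed positions of which 4 were intergenic, and a ratio of 2.14 (1.48 to 3.13). OsmiR-71 had 19, 47 and 40 reads and a ratio of 2.33 (1.32 to 4.26). The limits of OsmiR-100, OsmiR-222, OsmiR-89 and OsmiR-71 all included the median of all named miRNAs, 1.99. OsmiR-175, with a ratio of 2.00, stood at the fold of the rule itself.

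**Figure D5:**
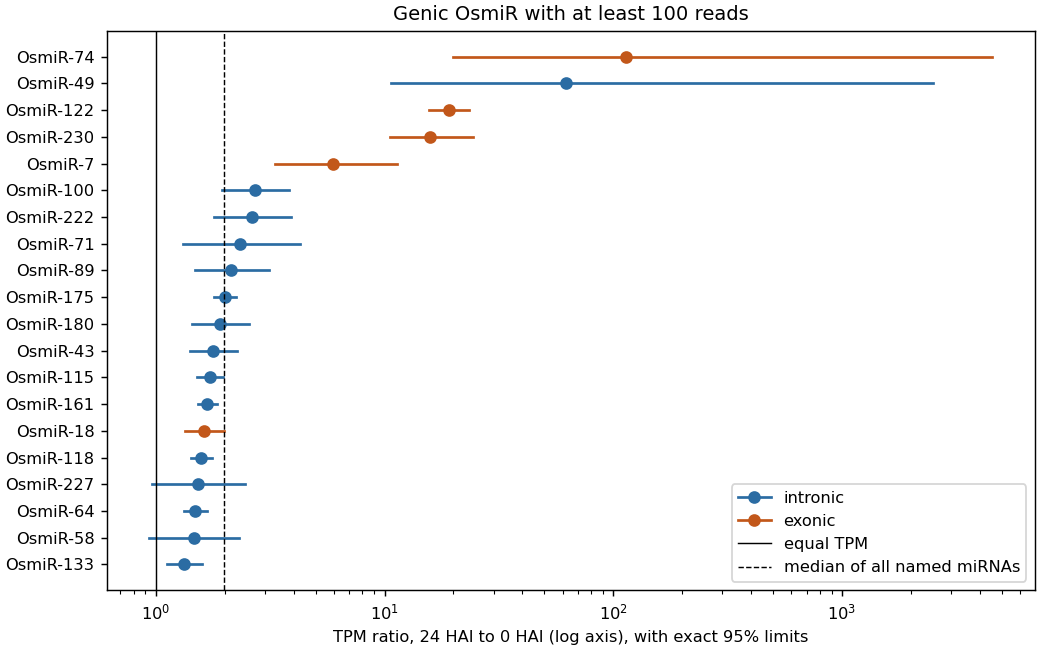
TPM ratio of 24 HAI to 0 HAI (x axis, log axis) for the 20 genic OsmiR with at least 100 reads, with exact 95% limits that cover counting error only; the solid line marks equal levels and the dashed line the median of all named miRNAs, 1.99. Exonic OsmiR-74, OsmiR-122, OsmiR-230 and OsmiR-7 and intronic OsmiR-49 have limits wholly above the dashed line, and exonic OsmiR-18 lies among the intronic ones.

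Among intronic OsmiR with few reads, OsmiR-54 and OsmiR-70 changed most. OsmiR-54 had 3, 30 and 24 reads with ratios to 0 HAI of 8.60 at 12 HAI and 8.85 at 24 HAI (limits of the latter 2.69 to 45.9). OsmiR-70, from the longest hairpin, had 1, 8 and 17 reads and a ratio of 18.8 at 24 HAI against 0 HAI (2.95 to 786). OsmiR-4 had 0, 5 and 11 reads and OsmiR-137 had 0, 8 and 7. Taken against the floor of 3 reads, the ratios at 12 and 24 HAI were 1.43 and 4.06 for OsmiR-4 and 2.29 and 2.58 for OsmiR-137. The exact lower limits, which allow for counting error in both libraries, were 0.788 and 2.78 for OsmiR-4 and 1.47 and 1.59 for OsmiR-137, so that a difference of OsmiR-4 at 12 HAI was not detectable at this depth. All 58 genic OsmiR had reads at 12 and 24 HAI, and none had its highest TPM at 0 HAI. It was highest at 12 HAI for 21 intronic and 5 exonic OsmiR and at 24 HAI for 24 and 8. Divided by summed miRNA reads instead, 31 of 45 intronic and 3 of 13 exonic OsmiR were below their 0 HAI level at 24 HAI. Of the genic OsmiR set aside, OsmiR-201 was highest at 0 HAI (1821, 10 and 4 reads) and OsmiR-52 had no read at 12 HAI (0, 0 and 8).

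At either length the median ratio was higher for exonic than for intronic OsmiR. The 37 intronic OsmiR of 24 nt had a median ratio of 1.90 at 24 HAI against 0 HAI and the 8 shorter ones 2.27. The 4 exonic OsmiR of 24 nt had a median of 3.43, from 13, 36 and 32 reads in all, and the 9 shorter ones 3.32. In the intergenic OsmiR the medians were 1.84 for 24 nt and 2.39 for shorter sequences.

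Several genic OsmiR were alike in sequence. A stretch of at least 10 bases in a row linked 12 of the 58 into 4 groups, a length chosen after the sequences had been seen. The largest group held 5 intronic OsmiR, shown with the longest stretch each shares with another of them in capitals.
OsmiR-3: ttaacatgTATATGAATGTGGaca
OsmiR-85: attaatatcTATATGAATGTGGgc
OsmiR-16: ATCTATATGAATatgggcaatact
OsmiR-42: atcaATATGAATGTagaaaatgct
OsmiR-181: ATGAATGTGGGtaatggtagaaat
They had 3 to 22 reads at 0 HAI, 9 to 35 at 12 HAI and 4 to 39 at 24 HAI. OsmiR-72 and OsmiR-173, which shared 15 bases with each other and 10 with OsmiR-161, made up the second group.
OsmiR-72: acttgaaaCAGTTTGACTTTGACc
OsmiR-173: acttaaagCAGTTTGACTTTGACt
OsmiR-161: agaAGTTTGACTTaggacaaaact
OsmiR-72 had 9, 29 and 25 reads and OsmiR-173 17, 36 and 31, far below OsmiR-161. The other groups were OsmiR-71 with OsmiR-89, sharing 11 bases, and exonic OsmiR-76 with intronic OsmiR-127, sharing 14 bases. OsmiR-76 had 5, 7 and 7 reads and OsmiR-127 4, 7 and 7. OsmiR-76 was also listed at an intronic position, and exonic OsmiR-88 at an intergenic one, so their reads cannot be assigned to an exon alone. Intronic OsmiR-42 likewise had an intergenic position. The only seed that 2 genic OsmiR shared was that of OsmiR-42 and OsmiR-182.

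The hairpins showed the likeness further. Aligned end to end on the same strand, the listed hairpins of 14 genic OsmiR, 12 intronic and 2 exonic, were at least 80% identical to that of another named OsmiR, and 9 of the 14 had such a likeness to an intergenic OsmiR. Hairpins of 88 nt with the mature sequence on the 3p arm were listed for OsmiR-16, OsmiR-42, OsmiR-176 and OsmiR-182, on chromosomes 1, 2, 12 and 3. They are shown because the likeness runs through the whole hairpin, loop included, and not only through the mature sequence in capitals.
OsMIR-42-1 (chr2:17535839-17535926, minus strand): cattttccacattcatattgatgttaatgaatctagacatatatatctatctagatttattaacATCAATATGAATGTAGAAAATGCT
OsMIR-182 (chr3:20555557-20555644, minus strand): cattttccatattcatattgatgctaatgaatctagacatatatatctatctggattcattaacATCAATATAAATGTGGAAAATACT
OsMIR-16 (chr1:25332755-25332842, plus strand): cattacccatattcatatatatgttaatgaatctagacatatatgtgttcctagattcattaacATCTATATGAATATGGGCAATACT
OsMIR-176-1 (chr12:5571203-5571290, plus strand): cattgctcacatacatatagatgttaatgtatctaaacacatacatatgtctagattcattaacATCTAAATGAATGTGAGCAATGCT
OsMIR-42-1 and OsMIR-182 had the same base at 81 of 88 positions, OsMIR-16 and OsMIR-182 at 73, and OsMIR-16 and OsMIR-176-1 at 71. OsmiR-42 had 22, 35 and 39 reads, OsmiR-176 16, 36 and 30, OsmiR-16 12, 12 and 18 and OsmiR-182 7, 21 and 10. Among the intergenic OsmiR, the hairpin of OsmiR-2 was 93.2% identical to OsMIR-16 and that of OsmiR-218 had the same base as OsMIR-42-1 at 81 of 88 positions. The 14 had 2 to 22 reads at 0 HAI, 7 to 36 at 12 HAI and 4 to 39 at 24 HAI, and a median ratio of 1.98 at 24 HAI against 0 HAI, close to the median of all named miRNAs. OsmiR-79, whose hairpin was like those of intergenic OsmiR alone, had 4, 14 and 4 reads.

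Some genic OsmiR lay near each other. Genic OsmiR were found on all 12 chromosomes, with 12 of the 45 intronic ones on chromosome 3. OsMIR-64 and OsMIR-227, both intronic, were 512 bases apart on the plus strand of chromosome 6. OsmiR-227 had 34, 61 and 47 reads, far fewer than OsmiR-64, and from 12 to 24 HAI its ratio was 0.991 (0.663 to 1.47) where that of OsmiR-64 was 0.756. OsMIR-22 and OsMIR-93 were 897 bases apart on the minus strand of chromosome 11, and OsmiR-22 had 9, 20 and 12 reads. OsMIR-175 was 156 bases from osa-MIR1876 on the plus strand of chromosome 10. The known osa-miR1876, a 24-nt rice miRNA, had 5539, 16335 and 14362 reads and a ratio of 24 HAI to 0 HAI of 2.87 (2.78 to 2.96), where OsmiR-175 had 2.00. The names of the host genes were not used here, and whether neighbours shared an intron was not checked.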

How the data were processed

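The 3 libraries came from rice embryos at 0, 12 and 24 HAI, 1 per time point. The read counts were deposited by the authors, who filtered reads with FastQC, mapped them with Bowtie to MSU 7.0, removed structural RNAs and predicted OsmiR with miRDeep2. Beside them the authors gave each miRNA's TPM. Their methods name clean reads as its denominator; the deposited reads and TPM give back, to the read, the totals that the study lists as genome-mapped, which were used here. The percent of G+C and the folding scores (MFE, MFEI) of the precursors were also deposited by the authors; here they were recomputed from the listed sequences with RNAfold 2.7.2, and the deposited columns served as an alternative. The intron and exon labels are those of the deposited table and were not rechecked, as no annotation of that build was used.

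TPM ratios over 2 or under 0.5 were counted, with exact conditional limits and a floor of 3 reads. A two-sided exact binomial test on the reads of a pair of libraries compared those libraries only. Intronic, exonic and intergenic OsmiR were compared over 10 measures with two-sided Fisher's exact tests, adjusted over 30 tests. With no replicates, no count model was fitted, and edgeR 4.0.16 and DESeq2 1.42.0 gave scaling factors only. Hairpins were aligned with Biopython 1.88. Tests ran in scipy 1.17.1, tables in pandas 2.3.3 and numpy 2.4.6, groups in networkx 3.6.1 and plots in matplotlib 3.10.9, under Python 3.11.15 and R 4.3.3.

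The OsmiR, the measures and the lists were chosen with earlier results of these data known. Any genic OsmiR could be named. Values in every library, or their range within a group of like sequences, were given for the 6 intronic and 6 exonic ones with the most reads, for those with at least 100 reads whose TPM differed over 2-fold with limits leaving out 1, for those with 0 reads in a library, and for those sharing a sequence or hairpin with another miRNA. OsmiR-22, OsmiR-54, OsmiR-70, OsmiR-159, OsmiR-204, OsmiR-206 and OsmiR-227 met none of these and were named after their values were seen.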

Additional observations from a re-analysis of the deposited data

How the results depend on the processing

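No paired analysis was possible because each time point had 1 library, and no library could be left out. The counts that follow take higher and lower together. By the TPM, 21 intronic OsmiR were higher and 1 lower at 12 HAI against 0 HAI, and under each of the 3 other scalings 4 and 3. The count of OsmiR past 2-fold moved by over 1.5 times under the following settings. Divided by summed miRNA reads, by TMM factors of edgeR or by size factors of DESeq2, the intronic count fell from 22 to 7 in each case at 12 HAI and from 21 to 6 in each case at 24 HAI, both against 0 HAI, and the exonic count went from 10 to 6 at 24 HAI against 0 HAI and from 1 to 2 at 24 HAI against 12 HAI. With at least 100 reads the intronic counts were 4, 6 and 0 of 15 OsmiR and the exonic ones 4 and 4 in the comparisons with 0 HAI; fewer OsmiR entered. By the exact test of libraries, 5 intronic OsmiR were called at 24 HAI against 12 HAI, and 5, 6 and 3 exonic ones in the 3 comparisons. With the OsmiR set aside put back, the exonic counts, now of 19 OsmiR, were 16 at 24 HAI against 0 HAI and 4 at 24 HAI against 12 HAI. The 6 exonic OsmiR put back were not all higher. Of them, 4 were higher and 2 lower at 24 HAI against 0 HAI, and 2 higher and 1 lower at 24 HAI against 12 HAI. Without hairpins that hold a known miRNA, an alternative chosen after seeing the data, the exonic counts in these comparisons were 6 and 0. Adding 1 read moved no count by over 1.5 times.

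The exonic share at 0, 12 and 24 HAI was 6.43%, 10.6% and 13.3% without OsmiR-122, 38.8%, 33.4% and 33.5% with the OsmiR set aside put back, and 1.92%, 7.50% and 9.33% without hairpins that hold a known miRNA. In that last setting the intronic excess of 24-nt OsmiR was 33.7 percentage points and lost its call (Fisher's exact test, adjusted p = 0.551); under the other alternatives its adjusted p ran from 0.000322 to 0.0247. With the OsmiR set aside put back, the intronic excess of first base A, 39.6 points, passed (Fisher's exact test, adjusted p = 0.0428). Differences that missed the threshold changed sign: the listed miRNA* to 14.6 points with OsmiR at 1 position and 1.45 without hairpins that hold a known miRNA, precursor length to −0.56, −5.76 and −40.0 points with the OsmiR put back, at 1 position and with at least 100 reads, MFE and MFEI to −1.16 points each without hairpins that hold a known miRNA, and reads to −13.3 points with at least 100 reads. The cause was not tested. The deposited hairpin columns changed no direction or call. With under 10 reads at 0 HAI in 30 of 58 OsmiR, a 2-fold difference was often not detectable at this depth.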

Other observations

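OsmiR-1 and OsmiR-208 had a first listing with both genic and intergenic positions and entered no comparison. OsmiR-1 had 12, 13 and 20 reads at 0, 12 and 24 HAI, and OsmiR-208, which shared 23 bases in a row with exonic OsmiR-76, had 8, 16 and 5. The hairpins of OsmiR-76 and OsmiR-208 were 91.4% identical.

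Complementary stretches also linked intronic OsmiR to other OsmiR, most of them intergenic. OsmiR-171, with 7, 23 and 21 reads, was complementary to OsmiR-112 over 18 bases and to OsmiR-110 over 17. OsmiR-102, with 1, 7 and 2 reads, was complementary to OsmiR-229 over 16 bases. Of the OsmiR set aside by name, it was complementary to OsmiR-9 over 19 bases and to intronic OsmiR-38 over 16. Whether these sequences form duplexes was not tested.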
